A study of Mus musculus with 6 samples.

Results

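Erg and Ets2 are neighbouring genes of the ETS family of transcription factors on mouse chromosome 16, and the accessible sites around them were examined in marrow cells that carry inv(16) and are heterozygous or wild type for Smc3. The sites are the peaks whose summit lies in Erg or Ets2 or nearer to either than to any other protein-coding gene. The Smc3 het list held 26 of them among its 47233 peaks, and the Smc3 wt list 5 among 14830. Erg (gene ID 13876) spans 95359169 to 95586600 on the minus strand of mm10, and Ets2 (gene ID 23872) spans 95702407 to 95721049 on the plus strand, with 115.8 kb between them. The genome nearest to the pair covers 520.8 kb.

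Open chromatin was mapped with ATAC-seq, a method that uses the transposase Tn5 to cut and tag accessible DNA, in lineage-depleted mouse bone marrow labelled as HSPC (hematopoietic stem and progenitor cells). The Smc3 het group has the genotype inv(16);Smc3 D/+ and the Smc3 wt group inv(16);Smc3 +/+, with 3 libraries each. Smc3 is a ring subunit of cohesin, the complex that holds chromatin loops and sister chromatids. All 6 libraries carry inv(16), the rearrangement that in human leukemia joins CBFB to MYH11, and all are labelled as virally transduced and tamoxifen-induced ("Creon" in the labels). The sources used here give no strain, no age, no driver of the induced construct and no account of how inv(16) was brought about. The deposit analysed holds 1 peak list per genotype. No value per library was analysed, so replicate error is unknown and no test was run.

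ETS proteins bind DNA at a GGAA core through a shared winged-helix domain. ERG is needed to maintain blood stem cells, binds enhancers together with FLI1, RUNX1, GATA2 and SCL partners, and is an oncogene when overexpressed in leukemia. ETS2 is an ETS activator whose activity is raised by RAS and ERK signalling. In blood cells much of the control of such genes lies in enhancers far from the start site. A stem-cell enhancer inside Erg is known from earlier work, but its coordinates are not in the sources used here, so no peak was assigned to it.

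The labelled cell type was set against its marker genes. Of 8 HSPC markers, 7 had at least 1 peak in Smc3 het, against 4 in Smc3 wt, and Cd48 had 0 in both lists. Of all protein-coding genes, 72.6% had a peak in Smc3 het and 46.1% had one in Smc3 wt. Of the 3 T cell markers (Cd3e, Cd4 and Cd8a), Cd4 had 1 peak, in Smc3 het, and the others had 0 in both lists. All 3 monocyte and macrophage markers (Adgre1, Cd14 and Csf1r) had peaks in Smc3 het, 12 in all, against 1 peak in Smc3 wt. The NK cell markers Klrb1c and Ncr1 had 5 in Smc3 het, against 3 in Smc3 wt, all at Klrb1c. The 3 erythroid markers had 2 in Smc3 het, against 0 in Smc3 wt. Of the 3 granulocyte markers, Ly6g and Camp had 1 peak each, in Smc3 het, and S100a8 had 0 in Smc3 het, against 1 in Smc3 wt. The 4 endothelial markers, from a cell type that also uses Erg, had 15 peaks in Smc3 het, against 1 in Smc3 wt. The part of such cells in the Erg and Ets2 peaks was not tested. The lists differ as a whole: 69.8% of all Smc3 het peaks had no Smc3 wt peak overlapping by 1 bp or more, and 2.92% of Smc3 wt peaks had no Smc3 het counterpart.

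The start sites were looked at first, because RefSeq gives 3 start sites for Erg and 1 for Ets2, and peaks lay over the Ets2 start alone. Over all genes, 34.7% of RefSeq promoter windows (250 bases before to 50 after a start) overlapped a Smc3 het peak and 26% a Smc3 wt peak. The Ets2 window overlapped a peak in both lists. None of the 3 Erg windows overlapped a peak in either list. The sequences below are the 250 bases before the Ets2 start, which has a peak in both lists, before the first Erg start, which has no peak, and before the third Erg start, beside which the Smc3 het list holds a peak. They are from RefSeq on GRCm38.p6 (the assembly of mm10), and capitals mark the motif letters described next.
Ets2, chr16:95702157-95702406, plus strand: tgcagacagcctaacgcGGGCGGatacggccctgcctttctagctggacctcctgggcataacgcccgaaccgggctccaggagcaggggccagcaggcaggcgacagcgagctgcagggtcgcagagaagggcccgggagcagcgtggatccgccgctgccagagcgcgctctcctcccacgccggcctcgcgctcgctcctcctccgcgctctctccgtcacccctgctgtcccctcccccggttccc
Erg, the first start, chr16:95586594-95586843, minus strand: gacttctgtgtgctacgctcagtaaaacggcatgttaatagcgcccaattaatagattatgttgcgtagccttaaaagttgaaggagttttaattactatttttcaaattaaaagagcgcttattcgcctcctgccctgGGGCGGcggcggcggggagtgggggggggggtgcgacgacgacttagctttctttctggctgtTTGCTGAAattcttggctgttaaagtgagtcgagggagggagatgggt
Erg, the third start, chr16:95459349-95459598, minus strand: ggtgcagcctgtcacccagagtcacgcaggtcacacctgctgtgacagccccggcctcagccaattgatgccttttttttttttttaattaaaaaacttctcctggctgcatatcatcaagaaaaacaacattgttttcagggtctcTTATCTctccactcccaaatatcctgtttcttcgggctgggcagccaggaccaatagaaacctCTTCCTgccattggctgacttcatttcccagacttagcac

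The searched letters, on both strands, were AGGAAG and CCGGAAGT for ETS factors, AGATAA for GATA factors, TGTGGT for RUNX, CAGCTG for E-box proteins, TGANTCA for AP-1, TTGCNNAA for CEBP and GGGCGG for GC boxes. AGGAAG and CCGGAAGT cannot match the same bases. The Ets2 promoter held GGGCGG alone of these, which 32.7% of all 32851 promoters of that length hold. The first Erg promoter held GGGCGG and TTGCNNAA, and TTGCNNAA was found in 9.56% of promoters. The second Erg promoter held TTGCNNAA only. The third Erg promoter held AGGAAG, found in 29.5% of promoters, and AGATAA, found in 9.99%. The full windows with the 50 bases after the start held the same motifs. The Ets2 promoter was 71.6% G and C with 25 CpG steps, and the promoters of Erg from the first to the third start were 48.8%, 36% and 47.2% G and C with 14, 2 and 3 CpG steps. The median promoter was 52.4% G and C with 6 CpG steps. A match is a match of letters in that window and was not tied to any factor.

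At Erg, the gene of the stem-cell factor, 17 peaks stood in the Smc3 het list, against 3 in the Smc3 wt list. Of the 17, 14 lay inside the gene, 1 lay 17.5 kb past its 3′ end, and the other two lay 25.6 and 54.3 kb upstream of it. In Smc3 wt 2 peaks lay inside the gene and 1 past the 3′ end. All 3 sites of Smc3 wt were also called in Smc3 het, and 14 Smc3 het peaks were in that list alone. Over the whole lists, 2.92% of Smc3 wt peaks and 69.8% of Smc3 het peaks had no counterpart. In bulk marrow, fewer cells with an open site and less opening per cell cannot be told apart. The depth of the lists is unknown as well, and its part in these counts was not tested.

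**Figure D1:**
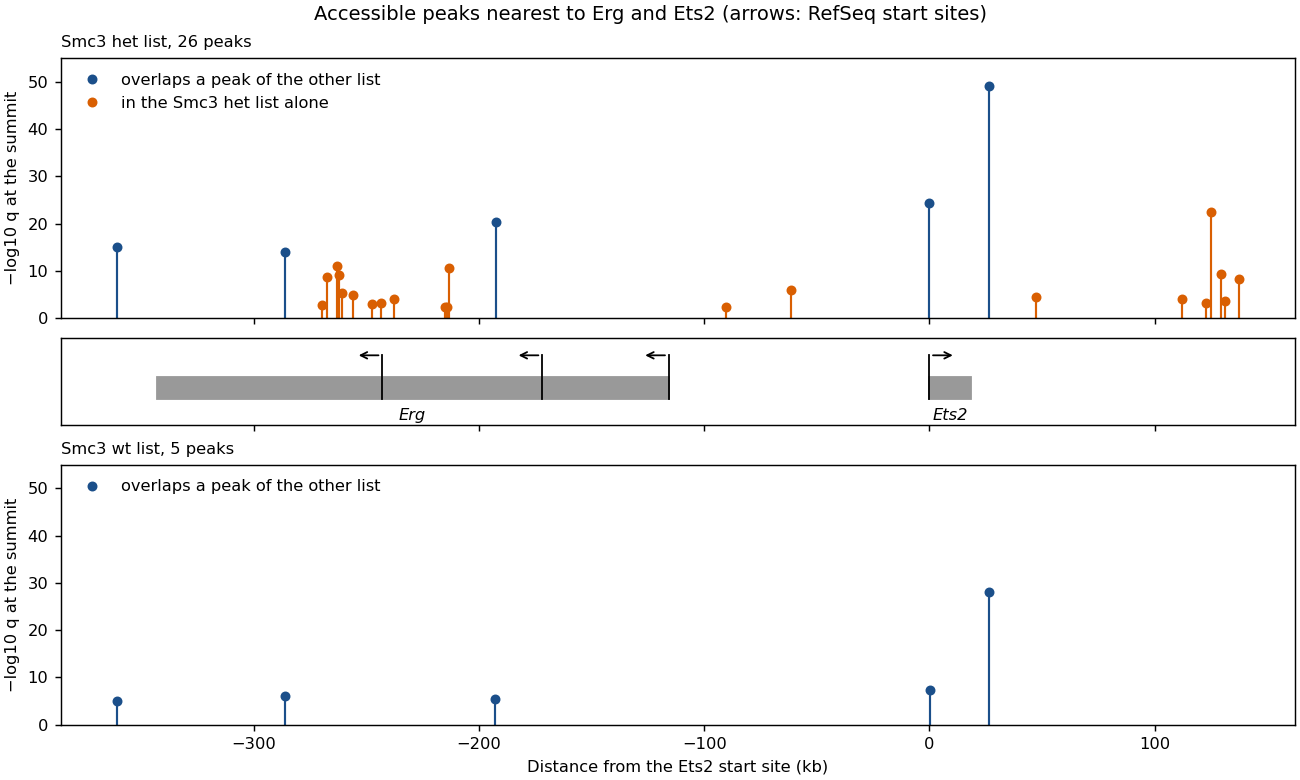
Peaks nearest to Erg and Ets2 by the distance of the summit from the Ets2 start (kb, horizontal) and −log10 q within each list (vertical), with Smc3 het above and Smc3 wt below; grey bars are gene spans and arrows the RefSeq starts. The 26 Smc3 het peaks include 21 in that list alone (orange), gathered inside Erg and beyond 100 kb downstream of Ets2, and the 5 Smc3 wt peaks all overlap a Smc3 het peak (blue).

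The peaks inside Erg filled only a central stretch of the gene. All 14 lay between 95415829 and 95510844, a stretch of 95 kb in a gene of 227.4 kb. The 75.8 kb at the 5′ end of the gene, which includes the first and the second start, had 0 peaks in either list, and so did the 56.7 kb at the 3′ end. The gap that runs from the last peak inside the gene past the first start to the next upstream peak was 101.1 kb long. The Smc3 wt peaks inside Erg stood near the edges of the central stretch, and the 93.1 kb between them held 0 Smc3 wt peaks and 12 Smc3 het peaks.

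The strongest Erg peak in Smc3 het was a wide one inside the gene, 76.7 kb downstream of the first start and 20501 bp downstream of the second. It ran from 95509222 to 95510844, 1623 bp, in Smc3 het, and from 95509362 to 95510553, 1192 bp, in Smc3 wt. Its fold over background, as the authors' peak caller gave it, was 4.99 in Smc3 het, against 3.21 in Smc3 wt, and its −log10 q was 20.3 in Smc3 het, against 5.49 in Smc3 wt. Few peaks were so wide: 0.68% of Smc3 het peaks reached its width in that list and 1.88% of Smc3 wt peaks its width in theirs. Folds and q values belong to their own list and depend on that list's depth, so they are given side by side and not as a change. Within the Smc3 wt list the wide peak was not the strongest at Erg. The peak at 95416036 to 95416287 had a fold of 3.31 and a −log10 q of 6.03 there.

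The other sites that both lists held at Erg lie toward and past the 3′ end of the gene. The peak 170.5 kb downstream of the first start was 667 bp wide in Smc3 het (95415829 to 95416495) and 252 bp in Smc3 wt (95416036 to 95416287). Its fold was 4.22 in Smc3 het, against 3.31 in Smc3 wt. The peak past the 3′ end was 238 bp wide in Smc3 het (95341538 to 95341775) and 225 bp in Smc3 wt (95341542 to 95341766), with a fold of 4.31 in Smc3 het, against 3.11 in Smc3 wt. Summits lay 8 bp apart at the inner site and 41 bp apart at the outer one, but 243 bp apart in the wide peak. Over all 13804 sites that paired 1 to 1 between the lists, the median summit distance was 41 bp and 14.7% of pairs were over 150 bp apart.

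**Figure D2:**
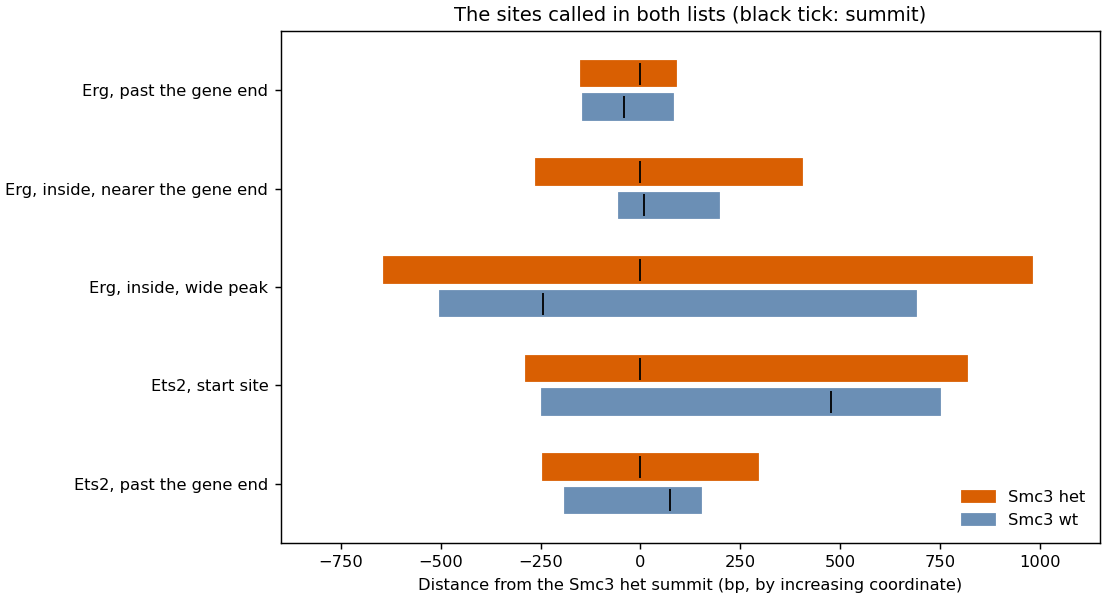
The sites at Erg and Ets2 called in both lists, drawn to scale as distance from the Smc3 het summit (bp), with the Smc3 het peak above the Smc3 wt peak and summits as black ticks. Each Smc3 wt peak lies wholly within its Smc3 het peak, and the summits are 478 bp apart at the Ets2 start and 8 bp apart at the inner Erg site.

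The peaks inside Erg in the Smc3 het list alone are described in groups by position, which do not follow spacing alone. The summits that separate the first group from the second were 5119 bp apart, and the second group holds a wider gap of 8462 bp. A group of 5 lay between 95432342 and 95441453, a stretch of 9.1 kb. Their folds ran from 2.34 to 3.26 and their −log10 q from 2.81 to 11.0. The local background recovered for these 5 ran from 11.8 to 15.9 in units of pileup (stacked reads or fragments), and the background most common in that list was 10.6. Of all Smc3 het peaks, 2.41% lay in a 10 kb window with 5 or more summits.

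A second group of 4 peaks spread over 18.5 kb, from 95446374 to 95464883, around the third Erg start, with −log10 q from 2.97 to 4.99. The peak nearest to that start ran from 95458960 to 95459126. Its summit was 298 bp downstream of the start, 172 bp separated it from the promoter window, and its fold was 2.49. The nearest Smc3 wt summit to the third start was 43250 bp away.

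A last group of 3 peaks lay within 1.9 kb, from 95487077 to 95488999, between the third and the second start. Of all Smc3 het peaks, 20.6% lay in a 10 kb window with 3 or more summits. The strongest of them had a fold of 3.72 and a −log10 q of 10.7, and both others a fold of 2.31 and a −log10 q of 2.38. Upstream of the gene, the peak at 95611980 to 95612213 had a fold of 2.32 and that at 95640802 to 95640979 a fold of 3.01. The peak at 95640802 lies near the boundary of the assignment, 54.3 kb from Erg and 61.5 kb from Ets2. Past the other boundaries, the next Smc3 het peaks had a fold of 2.15 each, at Kcnj15 (95189138 to 95189276) and at Psmg1 (95852673 to 95852851).

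At Ets2, the RAS-responsive family member, the Smc3 het list held 9 peaks and the Smc3 wt list 2. Both sites of Smc3 wt were also called in Smc3 het, and 7 Smc3 het peaks were in that list alone, as were 69.8% of all Smc3 het peaks. The body of the gene held no peak apart from the one over its start. That peak ran from 95701813 to 95702917 in Smc3 het, 1105 bp, and from 95701853 to 95702849 in Smc3 wt, 997 bp. Its fold was 5.04 in Smc3 het, against 3.36 in Smc3 wt, and its −log10 q was 24.3 in Smc3 het, against 7.25 in Smc3 wt. The Smc3 het summit lay 308 bp upstream of the start and the Smc3 wt summit 170 bp downstream of it. The whole promoter printed above lies within the peak in both lists.

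The most significant site at either gene in both lists lay 8 kb past the 3′ end of Ets2. It ran from 95728765 to 95729302, 538 bp, in Smc3 het and from 95728820 to 95729159, 340 bp, in Smc3 wt. Its fold was 7.74 in Smc3 het, against 6.49 in Smc3 wt, and its −log10 q was 49.2 in Smc3 het, against 28.0 in Smc3 wt. By −log10 q it ranked 3017 of 47233 in Smc3 het and 2294 of 14830 in Smc3 wt. The Smc3 wt list held it at a higher −log10 q than the Ets2 start, as did the Smc3 het list.

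The 7 Ets2 peaks in the Smc3 het list alone lay farther downstream. The nearest, at 95749264 to 95749663, was 28.6 kb past the gene end and had a fold of 2.75. A stretch of 65 kb without peaks followed. Beyond it lay a peak 93.7 kb past the gene end with a fold of 2.67, and then a group of 5 within 14.8 kb, from 95825347 to 95840103. Of all Smc3 het peaks, 6.83% lay in a 10 kb window with 4 or more summits, as 4 of these did.

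That distal group held the most significant peak at either gene that Smc3 wt lacked. It ran from 95827456 to 95827851, 106.6 kb past the end of Ets2, with a fold of 4.73 and a −log10 q of 22.4. Among the 32964 Smc3 het peaks without a Smc3 wt counterpart it ranked 524 by −log10 q, and 1.59% of them were at least as significant. The most significant such peak at Erg, at 95439212 to 95439448, ranked 4086. The other 4 of the distal group had folds from 2.39 to 3.37, and the widest was 791 bp (95839313 to 95840103). In the annotation, 3 of the 5 lie inside the long non-coding RNA gene 1600002D24Rik (95831123 to 95929077), and all 5 are nearer to it than to Ets2. The other Ets2 peaks in the Smc3 het list alone are nearer to Gm6599, a pseudogene, and Gm41509, another long non-coding RNA gene. For all 7, being nearest to Ets2 holds only among protein-coding genes.

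**Figure D3:**
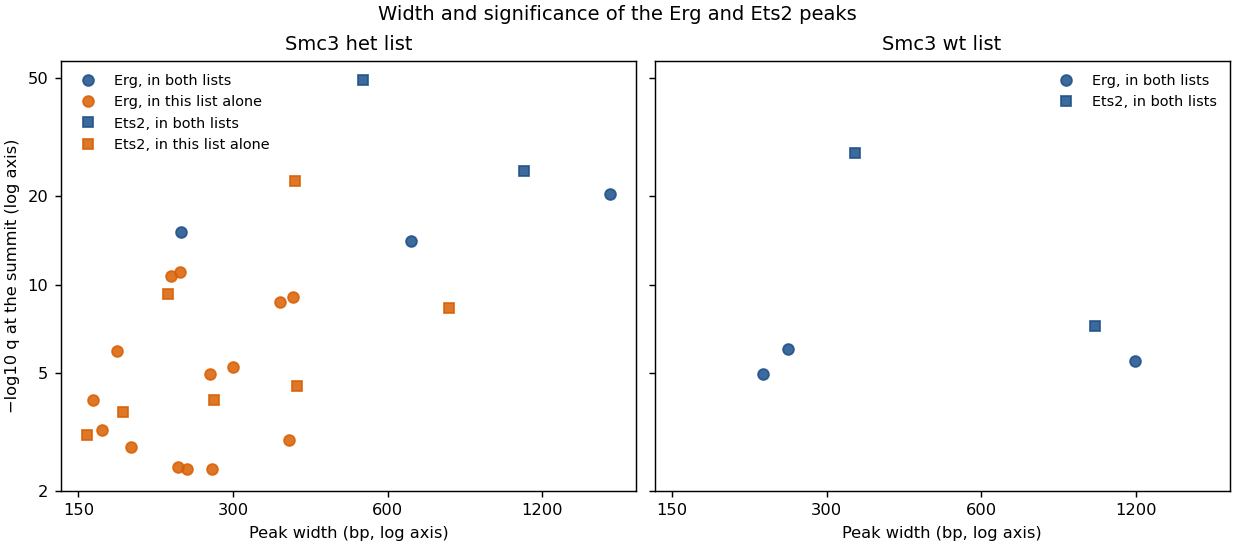
Width (bp, horizontal, log axis) and −log10 q (vertical, log axis) of each Erg peak (circles) and Ets2 peak (squares), with Smc3 het on the left and Smc3 wt on the right. In Smc3 het the sites of both lists (blue) have a −log10 q of at least 14.1, and those in that list alone (orange) run from 2.38 to 22.4, so the ranges overlap through 1 Ets2 peak.

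Among the 26 Smc3 het peaks, those that Smc3 wt shared were the more significant, with 1 exception. The 5 shared ones had a −log10 q from 14.1 to 49.2 in Smc3 het, and the 21 in that list alone ran from 2.38 to 22.4. The distal Ets2 peak at 95827456 was the only one of the 21 above 14.1. Pileup at the summit, the number of stacked reads or fragments recovered from the fold and p of each peak, was 48 to 94 at the 5 shared sites in Smc3 het and 29 to 62 in Smc3 wt. At the 21 sites in the Smc3 het list alone it was 26 to 67. The lowest pileup of any peak was 23 in Smc3 het, against 21 in Smc3 wt. The files give no Smc3 wt value at a site that was not called there, so how far below the threshold it lay is unknown.

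Shared sites were wider in Smc3 het at all 5 places, but this was so at 90.1% of the 13804 paired sites of the lists. Peaks of Erg covered 6155 bp in Smc3 het, against 1669 bp in Smc3 wt. Peaks of Ets2 covered 4068 bp in Smc3 het, against 1337 bp in Smc3 wt.

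The share of member peaks that Smc3 wt lacked was 80.8%, beside 69.8% over the whole Smc3 het list. Significance differs between the 2 sets, so the peaks were also set beside Smc3 het peaks of their own significance decile. In the fourth decile, where 70.4% of all peaks were in the Smc3 het list alone, 4 of 4 members were. From the fifth to the tenth decile, where 83.5% to 99.0% were, all 16 members were. In the first decile 1.84% were, and 0 of 1 member was. In the second decile 16.0% were, and 1 of the 3 members, the distal Ets2 peak, was. In the third decile 48.3% were, and 0 of 2 members were. Summed over the deciles of its 17 peaks, Erg would hold 13.7 peaks without a Smc3 wt counterpart at the list-wide shares, and it held 14. Ets2 would hold 5.73 of 9, and it held 7. Neither gap was tested.

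**Figure D4:**
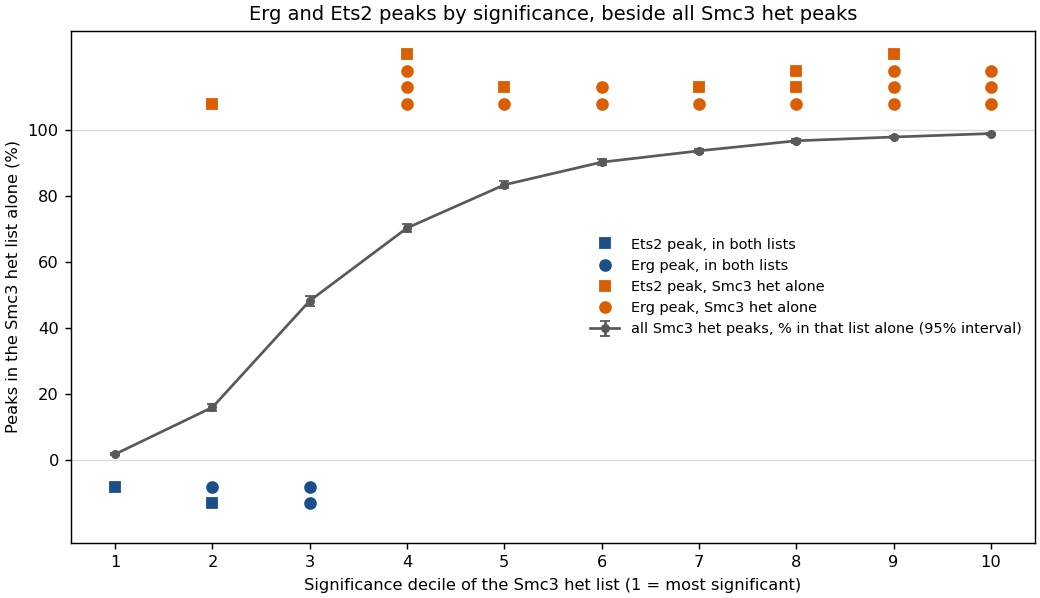
Percent of Smc3 het peaks in that list alone (vertical) by significance decile (horizontal, 1 is the most significant), for all Smc3 het peaks as a line with exact 95% binomial intervals that cover counting error only. Symbols above 100 are Erg (circles) and Ets2 (squares) peaks of that list alone and those below 0 are peaks of both lists, stacked with no scale; every member from the fourth decile on is in the Smc3 het list alone.

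With the Smc3 het list reduced to its 14830 most significant peaks, the length of the Smc3 wt list, Erg kept 3 peaks in Smc3 het, against 3 in Smc3 wt, and none was in the Smc3 het list alone. Ets2 then had 3 in Smc3 het, against 2 in Smc3 wt. The 1 Ets2 peak in the reduced Smc3 het list alone was the distal peak at 95827456. Of all peaks in the reduced Smc3 het list, 23.9% had no Smc3 wt counterpart. The sites of both lists were the same 5 as in the full lists, and the group of 5 inside Erg did not appear.

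Counted over all 21883 protein-coding genes, few had as many Smc3 het peaks as Erg. Erg's 17 Smc3 het peaks were matched or exceeded by 112 genes (0.512%, Erg included), and its 3 Smc3 wt peaks by 913 (4.17%). Ets2's 9 Smc3 het peaks were matched or exceeded by 798 genes (3.65%), and its 2 Smc3 wt peaks by 2775 (12.7%). The median gene had 1 peak in Smc3 het, against 0 in Smc3 wt. Since Erg lies in a large stretch of its own, density was compared too: Erg had 5.4 Smc3 het and 0.953 Smc3 wt peaks per 100 kb of nearest genome, and Ets2 had 4.37 Smc3 het and 0.971 Smc3 wt peaks. The median of the 6144 genes with at least 100 kb of nearest genome was 1.05 in Smc3 het, against 0.158 in Smc3 wt. Of these genes, 5.14% were denser than Erg in Smc3 het and 8.56% were denser than Ets2.

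In counts of peaks, Erg was matched exactly by Man1a, Eea1 and Flrt2, each with 17 Smc3 het and 3 Smc3 wt peaks. Ets2 was matched exactly by 56 genes, of which Dnajb12, Lyzl1 and Rwdd3 had the most similar gene length. Likeness here is the distance between log2(peaks + 1) in the 2 lists and says nothing of the positions of the peaks.

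Among the 26 ETS family genes, Erg and the repressor gene Etv6 had the most Smc3 het peaks, 17 each, against 3 Smc3 wt peaks at Erg and 2 at Etv6. Next came Fli1, the close relative of Erg, with 13 in Smc3 het, against 2 in Smc3 wt. Ets1, the close relative of Ets2, had 10 in Smc3 het, against 4 in Smc3 wt. By density the order differed, and Erg did not come first. Elf4 had 15.1, Spib 14.2, Elf1 10.6, Erf 10.4 and Spi1 9.87 Smc3 het peaks per 100 kb of nearest genome. Elk4 had 9.62, Elf2 8.01, Fli1 7.26, Etv3 6.27 and Etv6 5.71. All of these were above the 5.4 of Erg, and no other family gene was. Ets2 had 4.37 and Ets1 0.969. Of the 26 genes 22 (84.6%) had a peak in Smc3 het, against 16 (61.5%) in Smc3 wt, beside the 72.6% and 46.1% of all genes given above. Their median was 2.5 peaks in Smc3 het, against 1 in Smc3 wt. In all, 96 of their 126 Smc3 het peaks (76.2%) were in that list alone, against 69.9% over all genes. Erg, Fli1, Ets1 and Etv6 alike had 0 peaks within 1 kb of a gene end in both lists, while Ets2 had 1 in each. Of the 26 genes 14 (53.8%) had such a peak in Smc3 het, against 9 (34.6%) in Smc3 wt. Over all genes the shares were 46.2% in Smc3 het, against 32.5% in Smc3 wt.

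**Figure D5:**
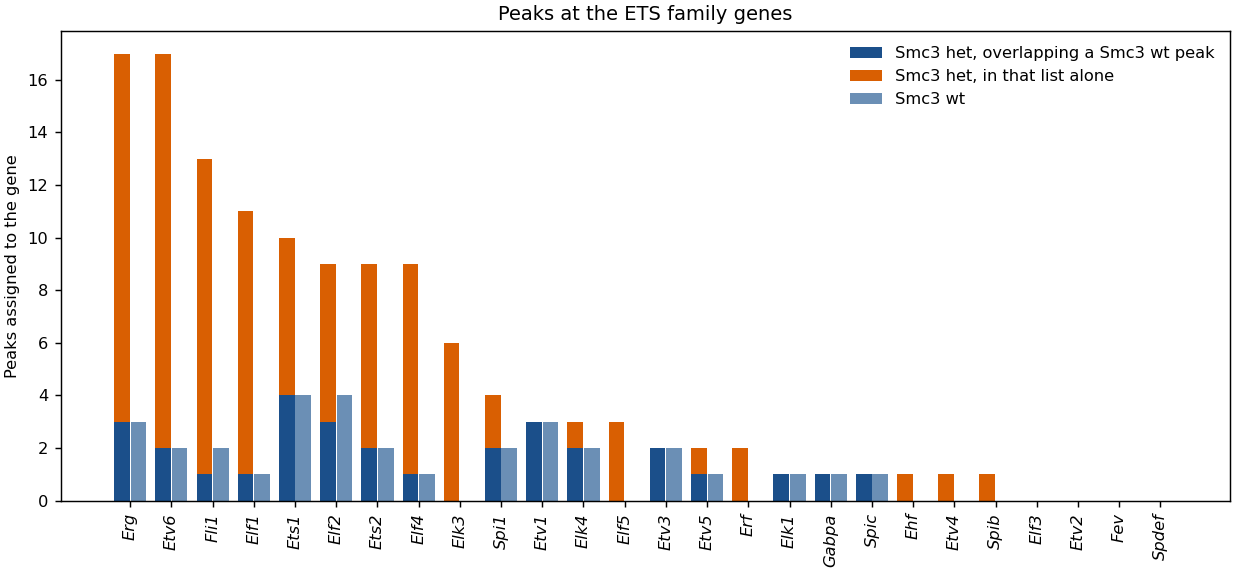
Number of peaks assigned to each ETS family gene (vertical), with Smc3 het as the left bar, split into peaks that overlap a Smc3 wt peak (dark blue) and peaks in the Smc3 het list alone (orange), and Smc3 wt as the right bar (light blue). Erg and Etv6 have 17 Smc3 het peaks each, and 4 genes (Elf3, Etv2, Fev and Spdef) have none in either list.

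In the stem-cell heptad, the 7 factors that share enhancers in blood stem cells, Erg came after Runx1 by count. Runx1 had 29 Smc3 het and 9 Smc3 wt peaks. In Smc3 het peaks per 100 kb of nearest genome, Erg (5.4) was above Runx1 (4.58) and Lmo2 (4.57). It was below Lyl1 (48.8), Tal1 (19.7), Fli1 (7.26) and Gata2 (6.15). All 7 genes had a peak in Smc3 het and 6 had one in Smc3 wt, beside 72.6% and 46.1% of all genes. Gata2 had 4 in Smc3 het, against 0 in Smc3 wt. The median was 6 peaks in Smc3 het, against 2 in Smc3 wt. In all, 57 of the 76 Smc3 het peaks (75%) were in that list alone, beside 69.9% over all genes. Runx1 lies on the same chromosome as Erg and Ets2.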

How the data were processed

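ATAC-seq was done on 6 libraries, 3 per genotype, grouped by sample title. Alignment to mm10 used Bowtie2 and peak calling MACS2, per the submitters' processing notes. No version, filter, read shift or control is given in the sources used here, nor whether libraries were pooled. Each genotype has 1 deposited list of 10 columns without a header, and the names of its peaks give the genotype. It holds a deposited integer score, a deposited fold (a ratio over background), a deposited −log10 p and −log10 q, and peak positions, all from the authors' peak caller. Every listed peak had a −log10 q of at least 1.30 (Smc3 het) or 1.33 (Smc3 wt). Depth is unknown.

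Peaks were assigned by the summit to the nearest of 21883 RefSeq protein-coding gene spans of GRCm38.p6, both genes and all listed ETS and heptad genes being found. Start sites and strands came from the RefSeq promoter table. Peaks overlapping by 1 bp were called shared. Pileup was taken as whole, with fold equal to pileup plus 1 over background plus 1. The Poisson tail then matched the deposited −log10 p within 0.01 for 99.7% of Smc3 het and 99.4% of Smc3 wt peaks, and for all 31 member peaks. Python 3.11.15, numpy 2.4.6, pandas 2.3.3 and scipy 1.17.1 were used. The overlap, assignment and pileup functions were tested on simulated data. Genes, lists and motifs were chosen with earlier results of these data known. Named genes are Erg and Ets2, neighbours on the chromosome, the listed ETS, heptad and marker genes, and the 3 genes most alike in counts. No test was possible with 1 list per genotype. Peak sequences were not used here. One marker list chosen at the start is not reported here.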

Additional observations from a re-analysis of the deposited data

How the results depend on the processing

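No paired analysis was possible because the files hold 1 list per genotype, and for the same reason no library could be left out. Of 54 counts of member peaks under 11 alternatives, 31 stayed within 1.5 times of the count in the full lists and 23 did not. The settings of equal list length left the Smc3 wt list whole. Its counts there could not move, and they are among the 31. All 8 alternative values of the share of all Smc3 het peaks in that list alone lay outside the exact 95% interval of the full-list share, 69.4% to 70.2%. That binomial interval counts peaks of 1 list and covers counting error only. It is narrow for that reason and does not measure variation between libraries. At −log10 q of at least 5 in both lists, Erg had 9 Smc3 het peaks, 7 in that list alone, and Ets2 had 5, 3 in that list alone. At equal list length, by −log10 q or by fold, Erg had 3 Smc3 het peaks and 0 in that list alone, and Ets2 had 3 and 1. At a fold of at least 5, Erg had 0 Smc3 het peaks, 0 Smc3 wt peaks and so 0 in the Smc3 het list alone. Ets2 then had 2 in Smc3 het, 1 of them in that list alone because its Smc3 wt counterpart was below that fold, and 1 in Smc3 wt. With all gene classes, Ets2 had 2 Smc3 het peaks and 0 in that list alone, since non-coding genes were nearer to the rest. With the gene span and 5 kb around it, Ets2 had 1 Smc3 het peak and 1 Smc3 wt peak, with 0 found in Smc3 het alone. The share of all Smc3 het peaks in that list alone was 69.2% at −log10 q of at least 2, 61.5% at 5, 48.7% at a fold of at least 5, and 23.9% and 25.7% at equal list length by −log10 q and by fold. It was 75.6% with 50% of each peak overlapping, 68% with peaks up to 500 bp apart and 74.5% with summits up to 150 bp apart. Depth is unknown, and no alternative varied it.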

Other observations

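The genes on either side of the pair differ in their peaks. Kcnj15, a potassium channel gene next to Erg, had 1 peak in Smc3 het, against 0 in Smc3 wt over 202.1 kb of nearest genome. Kcnj6, the next channel gene, had 8 in Smc3 het, against 2 in Smc3 wt, and the kinase gene Dyrk1a 12 in Smc3 het, against 4 in Smc3 wt. On the other side, the proteasome assembly gene Psmg1 had 10 in Smc3 het, against 2 in Smc3 wt, the bromodomain gene Brwd1 4 in Smc3 het, against 1 in Smc3 wt, and the nucleosome-binding gene Hmgn1 1 in each. In peaks per 100 kb, Psmg1 (7.09 in Smc3 het, against 1.42 in Smc3 wt) and Dyrk1a (6.98 in Smc3 het, against 2.33 in Smc3 wt) were above Erg in both lists. All Smc3 wt peaks of these 6 genes had a Smc3 het counterpart.

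The long non-coding RNA gene 1600002D24Rik has its boundary at 95831123 within the distal Ets2 group and reaches toward Psmg1. It held 7 Smc3 het and 1 Smc3 wt summits. The lncRNA gene Gm31989 (95693544 to 95700848), on the upstream side of Ets2, held 0 in both. The nearest summit lay 1251 bp away in Smc3 het, against 1729 bp in Smc3 wt.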
